A study of Homo sapiens with 6 samples.

Results

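Antioxidant defence in these cells is described here through 38 genes of the NRF2 and glutathione system. They were chosen as listed symbols, and each of the 38 matches 1 of the 58395 Ensembl genes in the data. The RNA comes from HCT116, an established line of human colorectal cancer cells, infected with lentivirus and then kept in a medium that selects infected cells. Cells of the shControl group (3 libraries) carry a non-target hairpin, and cells of the shSTBD1 group (3 libraries) carry a hairpin against STBD1, a glycogen-binding protein of the endoplasmic reticulum. Both groups therefore carry a hairpin and went through infection and selection, cells with 1 hairpin against STBD1 were sequenced, the methods name no cloning of the infected cells, and the labels name no oxidant.

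NRF2, the product of NFE2L2, is a transcription factor that KEAP1 holds in the cytoplasm and hands to a CUL3 ubiquitin ligase for breakdown. Electrophiles and oxidants modify cysteines of KEAP1, so that NRF2 escapes, pairs with small MAF proteins and binds antioxidant response elements near genes for glutathione synthesis, the thioredoxin system, heme breakdown, iron storage and conjugate export. Several kinds of tumour keep this programme active.

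The 6 libraries hold between 17689097 and 21668274 expected counts, which are RSEM's estimates of the reads from each gene. Levels are given as CPM (counts scaled to a common library size by TMM) for one gene across libraries and as TPM (transcripts scaled per length and to a common total) where genes are set beside each other. A gene is called higher or lower in shSTBD1 where edgeR's quasi-likelihood test gives a p-value that, after Benjamini-Hochberg adjustment across the 15566 genes tested, is under 0.05. These p-values measure the spread between 3 libraries a group, and for 1 gene alone an exact permutation test of 3 against 3 cannot go below 0.1. STBD1 itself is at 16.2, 15.7 and 14.4 CPM in shControl and at 11.6, 9.06 and 9.18 CPM in shSTBD1, a log2 fold change of -0.64 (standard error 0.098, edgeR adjusted p = 0.00029), which with limma on log2(TPM + 1) is -0.54 (adjusted p = 0.065). Of 8 markers of colorectal epithelium, 5 are above 1 TPM in every library, whereas CDH17, VIL1 and LGALS4 reach at most 0.21 TPM. The summed level of these 8 markers is 2851 to 2885 TPM in shControl and 3236 to 3373 TPM in shSTBD1, with KRT8, KRT18, KRT19 and CDH1 called higher. Among 6 leukocyte markers PTPRC and CD3E are at 0, and the sum runs from 7.49 to 8.52 TPM in shControl and from 11.3 to 12.8 TPM in shSTBD1, nearly all of it CD68. CD68, a lysosomal membrane protein used as a macrophage marker, is called higher, with a log2 fold change of 0.47 (edgeR adjusted p = 0.0027) that exceeds the rise of any called member and is called in all 20 alternatives. The 5 fibroblast markers sum to 15.0 to 20.8 TPM over all libraries, nearly all COL1A1, with LUM at 0, and the 4 endothelial markers to at most 0.69 TPM. The part of these markers in the results below was not tested.

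Some of the antioxidant genes are higher in shSTBD1 by small steps, others do not pass the test, and the messages of NRF2 and KEAP1 are called lower. Of the 38 members 35 hold enough counts to be tested, and 14 of them (40.0%) are called higher, against 8.22% of all tested genes. Another 3 (8.57%) are called lower, against 7.54% of all tested genes. The list was chosen with earlier results of these data known, so these shares describe it and are not a test of the pathway. The 14 are NQO1, HMOX1, BLVRA, BLVRB, GCLC, GSS, TXN, TXNRD1, SRXN1, PRDX1, SOD1, SOD2, FTL and ABCC2, and the 3 are NFE2L2, KEAP1 and PRDX2. The other 18 tested members are not called, and their median log2 fold change is 0.015 (-0.038 with the offsets for transcript length described further on). The median log2 fold change of the 35 is 0.077, beside 0.0023 over all tested genes, and the largest rise is 1.32-fold. In 22 of the 35 the CPM of the groups does not overlap, which is so for 33.6% of all tested genes, and in 15 the TPM does not, against 24.4%. The list mixes genes with and without an antioxidant response element, and its counts do not measure the activity of NRF2. In bulk RNA, fewer cells with a transcript and less of it per cell cannot be told apart.

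**Figure D1:**
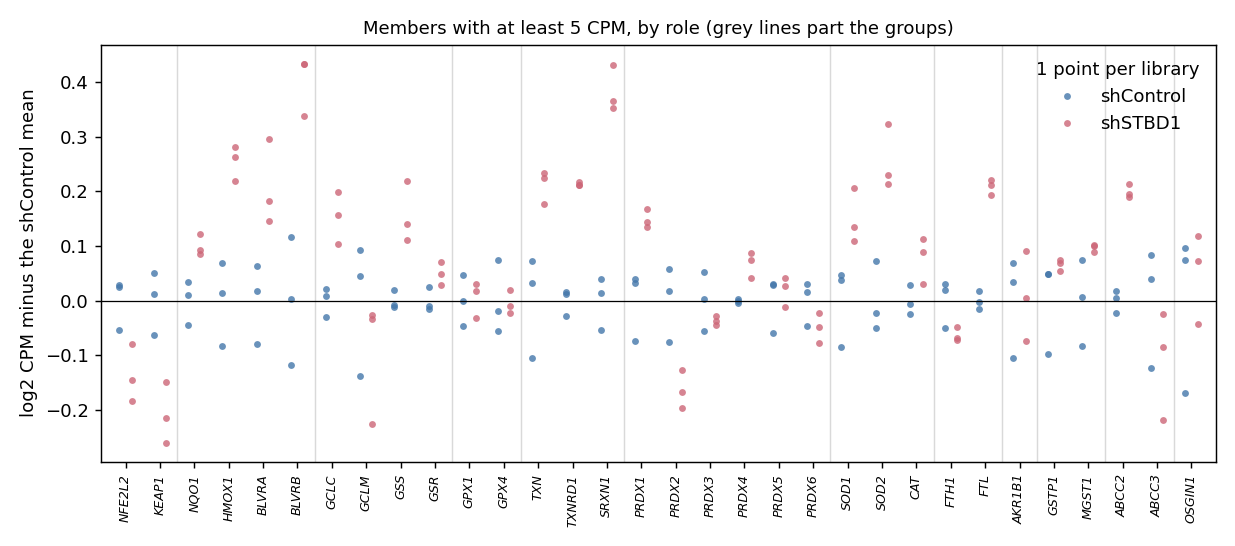
Level of the 32 members with at least 5 CPM in each library, as log2 CPM minus the mean of the 3 shControl libraries (1 point per library, grouped by role). The shSTBD1 points of SRXN1, BLVRB, TXNRD1, FTL and ABCC2 lie above every shControl point, those of NFE2L2, KEAP1 and PRDX2 lie below, and the groups overlap for GCLM, GPX1, GPX4 and FTH1.

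Each gene's promoter shows whether the core letters of an antioxidant response element lie close to its start. The search used TGACNNNGC on both strands of RefSeq promoters (GRCh38.p14, 250 bases before to 50 after the start), a pattern that overlaps the AP-1 site TGACTCA when the bases coincide. An entry exists for 29 of the 38 members, with 42 starts, and 6 of the 29 members (20.7%) hold the pattern at 1 start or more, beside 16.1% of the 27305 genes in the table and 23 of the 76 other pathway genes with an entry (30.3%). The 6 are TXNRD1, KEAP1, GCLM, GPX2, GSTP1 and MGST1, and of their matches the one in GSTP1, TGACTCAGC, also holds TGACTCA. A match is a string of letters, not a bound site, and elements farther away lie outside these windows. The promoters of TXNRD1 (called higher, both of its starts), KEAP1 (called lower, 1 of its starts) and GCLM (not called) are printed since they hold the pattern and differ in direction. The other KEAP1 start, chr19:10503307-10503606, has 0 matches and is not printed. The promoter of SRXN1, which has the smallest adjusted p among the members, is printed since it holds none. Capitals mark TGACNNNGC read on either strand, and each sequence runs 5′ to 3′ on the strand of its gene.
TXNRD1, first start, chr12:104215529-104215828, plus strand: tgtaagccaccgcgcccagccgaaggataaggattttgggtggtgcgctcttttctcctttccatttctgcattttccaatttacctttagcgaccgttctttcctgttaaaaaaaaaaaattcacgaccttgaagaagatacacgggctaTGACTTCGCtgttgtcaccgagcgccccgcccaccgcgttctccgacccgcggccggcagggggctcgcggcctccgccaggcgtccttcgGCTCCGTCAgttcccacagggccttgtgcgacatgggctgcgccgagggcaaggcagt
TXNRD1, second start, chr12:104286782-104287081, plus strand: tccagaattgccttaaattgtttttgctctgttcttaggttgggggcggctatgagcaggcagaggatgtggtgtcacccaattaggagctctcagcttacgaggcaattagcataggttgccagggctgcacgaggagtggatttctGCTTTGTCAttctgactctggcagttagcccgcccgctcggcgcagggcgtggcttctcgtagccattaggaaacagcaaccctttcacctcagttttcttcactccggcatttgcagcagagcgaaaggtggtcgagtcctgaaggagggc
KEAP1, chr19:10502722-10503021, minus strand: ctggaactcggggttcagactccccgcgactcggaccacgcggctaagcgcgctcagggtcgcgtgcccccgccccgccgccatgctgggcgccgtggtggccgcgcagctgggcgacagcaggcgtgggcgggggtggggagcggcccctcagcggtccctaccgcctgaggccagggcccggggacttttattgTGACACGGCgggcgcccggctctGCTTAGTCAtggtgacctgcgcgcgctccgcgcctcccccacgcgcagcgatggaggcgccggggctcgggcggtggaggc
GCLM, chr1:93909381-93909680, minus strand: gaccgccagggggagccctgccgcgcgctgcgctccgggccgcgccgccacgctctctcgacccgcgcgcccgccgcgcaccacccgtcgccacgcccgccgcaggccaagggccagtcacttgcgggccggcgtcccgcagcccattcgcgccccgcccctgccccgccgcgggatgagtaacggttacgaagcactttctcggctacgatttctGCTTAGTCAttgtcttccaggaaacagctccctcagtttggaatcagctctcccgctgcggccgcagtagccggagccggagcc
SRXN1, chr20:653151-653450, minus strand: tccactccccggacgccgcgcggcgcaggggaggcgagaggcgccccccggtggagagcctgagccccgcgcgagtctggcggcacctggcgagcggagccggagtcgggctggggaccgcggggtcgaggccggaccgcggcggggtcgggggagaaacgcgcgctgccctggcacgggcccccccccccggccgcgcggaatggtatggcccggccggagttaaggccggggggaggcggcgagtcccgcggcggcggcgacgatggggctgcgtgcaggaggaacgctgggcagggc

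Positions count bases before the start on the strand of the gene, and the start itself is 0. The first TXNRD1 start has TGACTTCGC from 99 to 91 and, on the other strand, TGACGGAGC from 8 to 0. At the printed start of KEAP1 the other strand reads TGACTAAGC from 31 to 23, and the strand of the gene reads TGACACGGC from 54 to 46. In GCLM the other strand reads TGACTAAGC from 34 to 26. So 1 and the same 9-letter word stands near 1 of the starts of a gene that falls and near the start of a gene that is not called.

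The messages of NRF2 and its sensor are both called lower in shSTBD1. NFE2L2 (chr2:177218667-177392756, GRCh38) is at 98.8, 104 and 105 CPM in shControl and at 97.1, 92.8 and 90.3 CPM in shSTBD1. In CPM the highest shSTBD1 library lies just under the lowest shControl library. In TPM the groups of NFE2L2 overlap, with shSTBD1 1 at 46.84 and shControl 1 at 44.77. Its log2 fold change is -0.14 (standard error 0.039, edgeR adjusted p = 0.025), and without shControl 2, shControl 3, shSTBD1 2 or shSTBD1 3 the adjusted p runs from 0.077 to 0.13. NFE2L2 is also not called with library size alone, effective-length offsets or limma on TPM, and 12 of the 20 alternatives call it. KEAP1 (chr19:10486125-10503558) is at 121, 114 and 124 CPM in shControl and at 103, 108 and 99.8 CPM in shSTBD1, without overlap. This is a log2 fold change of -0.21 (standard error 0.040, edgeR adjusted p = 0.0022), called with any 1 library left out. On the opposite strand, HNRNPA3 covers 23.4% of the exon bases of NFE2L2, and the library kit is not stated to keep strand. Genes on the opposite strand likewise cover 29.8% of the exon bases of PRDX1 (MMACHC), 19.4% of NQO1 (ENSG00000261602) and 12.1% of PRDX2 (ENSG00000267062). On the same strand, ENSG00000290318 covers 39.9% of GPX1.

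All 4 genes of quinone reduction and heme breakdown are called higher, against 8.22% of all tested genes. With the offsets for transcript length described further on, 2 of the 4 remain called, HMOX1 and BLVRB, against 7.88% of all tested genes. With effective-length offsets or limma on TPM, only BLVRB does. NQO1 (chr16:69706996-69726668), the quinone reductase often read as a gauge of NRF2, is at 270, 286 and 281 CPM in shControl and at 296, 298 and 304 CPM in shSTBD1. The groups lie close without overlap, and its log2 fold change of 0.10 (standard error 0.032, edgeR adjusted p = 0.042) is the smallest among the 14. Without shControl 3, shSTBD1 1, shSTBD1 2 or shSTBD1 3 its adjusted p runs from 0.090 to 0.17. HMOX1 (chr22:35380361-35394214), heme oxygenase 1, which opens heme to biliverdin, is at 30.6, 34.0 and 32.8 CPM in shControl and at 38.9, 37.7 and 39.4 CPM in shSTBD1. Each shSTBD1 library exceeds each shControl library, with a log2 fold change of 0.25 (standard error 0.054, edgeR adjusted p = 0.0043).

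Both genes named as biliverdin reductases, BLVRA and BLVRB, are also called higher. BLVRB (chr19:40447765-40465764) is at 51.3, 55.8 and 60.3 CPM in shControl and at 70.4, 75.2 and 75.1 CPM in shSTBD1. It shows the largest rise among the called members, 0.40 on the log2 scale (standard error 0.052, edgeR adjusted p = 6.2e-05), and stays called in all 20 alternatives. BLVRA (chr7:43758680-43807342) is at 21.9, 24.1 and 23.4 CPM in shControl and at 28.4, 25.6 and 26.2 CPM in shSTBD1. Its rise is 0.21 on the log2 scale (standard error 0.064, edgeR adjusted p = 0.038), while its groups overlap in TPM (shControl 2 at 39.55, shSTBD1 2 at 37.57). The call rests on nearly every library, since without shControl 1, shControl 3, shSTBD1 1, shSTBD1 2 or shSTBD1 3 the adjusted p runs from 0.057 to 0.16, and DESeq2 does not make it.

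Of the 4 genes for glutathione synthesis and reduction, GCLC and GSS are called higher, and GCLM and GSR are not called. GCLC (chr6:53497341-53616970), the catalytic subunit of glutamate-cysteine ligase, which joins glutamate and cysteine in the limiting step, is at 86.3, 84.0 and 87.1 CPM in shControl and at 92.1, 98.4 and 95.7 CPM in shSTBD1. Its log2 fold change is 0.15 (standard error 0.038, edgeR adjusted p = 0.010), with an adjusted p of 0.073 without shSTBD1 2. Its mean effective length, which RSEM takes from the isoforms it finds, is 2797 bases in shControl and 2477 bases in shSTBD1, and with offsets for effective length the log2 fold change becomes 0.32. GCLM (chr1:93885199-93909456), the modifier subunit, is at 36.0, 40.9 and 42.2 CPM in shControl and at 38.9, 38.7 and 33.9 CPM in shSTBD1. The groups overlap, and the log2 fold change of -0.095 (standard error 0.066, edgeR adjusted p = 0.37) does not pass. Per length, GCLC stands above GCLM, with a TPM ratio of 2.47, 1.70 and 1.86 in shControl and 2.42, 2.7 and 3.19 in shSTBD1 (exact two-sided permutation test on the log2 ratio, p = 0.2, n = 3 a group).

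GSS (chr20:34928432-34956027), glutathione synthetase, which adds glycine, is at 94.5, 96.6 and 94.7 CPM in shControl and at 111, 103 and 105 CPM in shSTBD1. In CPM all shSTBD1 values are above all shControl values, with a log2 fold change of 0.16 (standard error 0.037, edgeR adjusted p = 0.0094) and an adjusted p of 0.068 without shSTBD1 1. In TPM the groups of GSS overlap, with shControl 2 at 78.81 and shSTBD1 2 at 77.15. GSR, which regenerates reduced glutathione with NADPH, is not called (log2 fold change 0.049, edgeR adjusted p = 0.31), and its direction turns with offsets for effective length. The glutathione peroxidases, which spend glutathione on peroxides, are not called, with a log2 fold change of 0.0058 for GPX1 and of -0.0063 for GPX4, the lipid peroxidase (edgeR adjusted p = 0.94 for both). GPX2 has 7 expected counts or fewer in each library and was not tested.

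All 3 members of the thioredoxin system, TXN, TXNRD1 and SRXN1, are called higher. Of the 10 tested other thioredoxin and glutaredoxin genes 1 is called higher, against 8.22% of all tested genes, and their median log2 fold change is -0.022. TXNRD1 (chr12:104215779-104350307), the cytosolic reductase that passes electrons from NADPH to thioredoxin, is at 484, 497 and 498 CPM in shControl and at 571, 571 and 573 CPM in shSTBD1. The replicates of shSTBD1 nearly coincide, at a log2 fold change of 0.21 (standard error 0.029, edgeR adjusted p = 0.00011). TXN (chr9:110243810-110256507), thioredoxin 1, is at 203, 223 and 230 CPM in shControl and at 247, 257 and 255 CPM in shSTBD1. Its log2 fold change is also 0.21 (standard error 0.040, edgeR adjusted p = 0.0020). The TPM ratio of reductase to thioredoxin is 0.516, 0.464 and 0.467 in shControl and 0.485, 0.463 and 0.464 in shSTBD1 (exact two-sided permutation test on the log2 ratio, p = 0.5, n = 3 a group).

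SRXN1 (chr20:646615-653200), sulfiredoxin, repairs peroxiredoxins whose cysteine has been overoxidized. It is at 113, 108 and 115 CPM in shControl and at 144, 151 and 143 CPM in shSTBD1. The gap between the groups is wide beside the spread within them, and the log2 fold change of 0.38 (standard error 0.037, edgeR adjusted p = 2.2e-06) is called in all 20 alternatives. In GENCODE 44 another protein-coding gene model on the same strand, ENSG00000270299, covers 90.7% of its exon bases, and RSEM's posterior standard deviation is 0.224% of its count on average.

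Of the peroxiredoxins, which clear peroxides, 1 of 6 is called higher and 1 of 6 lower, against 8.22% and 7.54% of all tested genes. PRDX1 (chr1:45510914-45542732), an abundant cytosolic form, is at 647, 700 and 696 CPM in shControl and at 764, 752 and 747 CPM in shSTBD1. The rise of 0.15 on the log2 scale (standard error 0.034, edgeR adjusted p = 0.0072) has an adjusted p of 0.052 without shSTBD1 1. PRDX2 (chr19:12796820-12801800), also cytosolic, is at 178, 195 and 189 CPM in shControl and at 163, 167 and 171 CPM in shSTBD1. It thus goes the other way, with a log2 fold change of -0.16 (standard error 0.037, edgeR adjusted p = 0.0065) that is called with any 1 library left out. The ratio of PRDX1 to PRDX2 in TPM is 3.63, 3.52 and 3.59 in shControl and 4.59, 4.42 and 4.25 in shSTBD1. An exact two-sided permutation test on the log2 ratio gives p = 0.1, the smallest it allows (n = 3 a group). In TPM neither gene overlaps between the groups, and the 2 move in opposite directions. The ratio therefore had to separate, and its p adds nothing to the values of the 2 genes. PRDX3 of the mitochondrion, PRDX4 of the secretory pathway, PRDX5 and PRDX6 have log2 fold changes between -0.049 and 0.068 and are not called.

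Both superoxide dismutases rise. SOD1 (chr21:31659666-31668931), the copper and zinc enzyme of the cytosol, is at 220, 241 and 239 CPM in shControl and at 256, 269 and 251 CPM in shSTBD1. Its log2 fold change is 0.15 (standard error 0.039, edgeR adjusted p = 0.015), and the adjusted p is 0.053 without shSTBD1 1 and 0.11 without shSTBD1 2. SOD2 (chr6:159669069-159762529), the manganese enzyme of the mitochondrion, is at 92.1, 84.5 and 86.2 CPM in shControl and at 110, 103 and 102 CPM in shSTBD1. This larger rise of 0.25 on the log2 scale (standard error 0.042, edgeR adjusted p = 0.00060) is called with any 1 library left out. CAT, catalase of the peroxisome, has a log2 fold change of 0.077 and is not called (edgeR adjusted p = 0.22). Its groups do not overlap in CPM, which is so for 5 of the 18 members not called and for 33.6% of all tested genes.

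Ferritin stores iron in a shell of heavy and light chains, of which the light chain is called higher and the heavy chain is not called. FTL (chr19:48965309-48966879), the light chain, is at 1026, 1003 and 1012 CPM in shControl and at 1180, 1158 and 1174 CPM in shSTBD1, a log2 fold change of 0.21 (standard error 0.029, edgeR adjusted p = 0.00011). FTH1, the heavy chain with the ferroxidase site, is at 1238, 1170 and 1229 CPM in shControl and at 1156, 1172 and 1154 CPM in shSTBD1, with overlap. Its log2 fold change of -0.063 (standard error 0.031, edgeR adjusted p = 0.18) is not called. The TPM ratio of FTL to FTH1 is 0.585, 0.611 and 0.587 in shControl and 0.739, 0.705 and 0.731 in shSTBD1, a difference of 0.29 on the log2 scale. An exact two-sided permutation test on the log2 ratio gives p = 0.1, the smallest it allows (n = 3 a group). Since both chains separate in TPM, FTL upward and FTH1 downward, the ratio had to separate. Its p adds nothing to the values of the 2 chains. Summed over both chains the level is 5121, 5139 and 5247 TPM in shControl and 5297, 5229 and 5184 TPM in shSTBD1, which overlap. BEST1 on the opposite strand covers 63.2% of the exon bases of FTH1.

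ABCC2 (chr10:99782640-99852594), the pump that exports glutathione conjugates and bilirubin conjugates, is at 182, 181 and 177 CPM in shControl and at 209, 206 and 205 CPM in shSTBD1. The groups are far apart beside their spread, with a log2 fold change of 0.20 (standard error 0.031, edgeR adjusted p = 0.00031). ABCC3, a related pump of the basolateral side, is not called, with a log2 fold change of -0.11 (edgeR adjusted p = 0.32). The glutathione transferases GSTP1 and MGST1 have log2 fold changes of 0.064 and 0.095 and are not called, and GSTM3 is listed at 0 in all 6 libraries. OSGIN1, a growth inhibitor of the stress response, is at 11.1 to 13.6 CPM and is not called (log2 fold change 0.047).

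Aldo-keto reductases, among the strongest NRF2 targets in many epithelial cells, are near the lower limit of detection except AKR1B1. AKR1B1 is at 42.4 to 48.6 CPM over the 6 libraries, with a log2 fold change of 0.011 (edgeR adjusted p = 0.93). AKR1B10, AKR1C1 and AKR1C3 are at 0.28 to 1.70 CPM, where a log2 fold change has a standard error of 0.30 to 0.41. A change of AKR1C1 or AKR1C3 of the size seen in SRXN1 would be close to that standard error and is not detectable at this depth. AKR1C2 has 8 expected counts or fewer in each library and was not tested, and RSEM's posterior standard deviation is 19.0% of its count.

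Levels per length span more than 3 powers of 10 among the tested members. Ferritin leads with FTH1 at 3242 ± 59.4 TPM (SD, n = 3) in shControl and FTL at 1927 ± 31.9 TPM, before PRDX1 at 1078 ± 66.9 TPM and GSTP1 at 865 ± 74.8 TPM. In the range from TXN at 424 ± 37.8 TPM through SOD1 at 384 ± 29.6 TPM to NQO1 at 354 ± 15.7 TPM, neighbours differ by about their spread. KEAP1 at 60.5 ± 3.82 TPM stands above NFE2L2 at 48.9 ± 3.61 TPM, and HMOX1 is at 24.3 ± 1.88 TPM. The 38 members together hold 10656, 11317 and 11367 TPM in shControl and 11596, 11469 and 11397 TPM in shSTBD1, so the groups nearly meet. The ferritin chains, whose sum overlaps between the groups, hold 5121 to 5297 TPM of this.

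**Figure D2:**
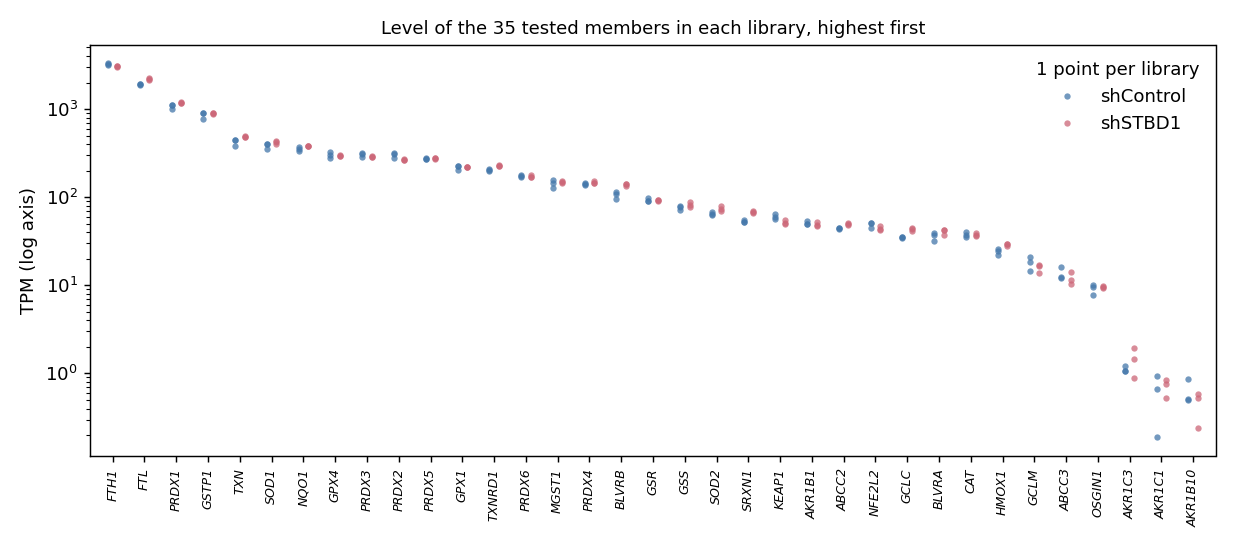
Level of the 35 tested members in each library in TPM (log axis, 1 point per library), ordered by their mean. Ferritin leads at over 1000 TPM, most members lie between 10 and 1000 TPM, and AKR1C3, AKR1C1 and AKR1B10 lie near or under 1 TPM.

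The calls were also made with scaling for transcript length. The 14 members called higher have a median effective length of 1172 bases and the 18 not called one of 1144 bases, against 1986 bases over all tested genes, and in the libraries the deviation of a gene from its mean is correlated with its length. Across genes, Spearman's rho of that deviation with effective length is 0.23, -0.0075 and 0.051 in shControl and -0.082, -0.18 and -0.14 in shSTBD1, so it moves with the group. With offsets that take out this trend, 10 members are called higher, against 7.88% of all tested genes, and 4 lower, against 7.65%. NQO1, BLVRA, PRDX1 and SOD1 then no longer pass (edgeR adjusted p = 0.24, 0.12, 0.051 and 0.067), and FTH1 is called lower with a log2 fold change of -0.15 (edgeR adjusted p = 0.011). HMOX1, BLVRB, GCLC, GSS, TXN, TXNRD1, SRXN1, SOD2, FTL and ABCC2 remain called higher, and NFE2L2, KEAP1 and PRDX2 lower.

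With RSEM's own effective lengths as offsets 5 members are called higher, which are BLVRB, GCLC, TXNRD1, SRXN1 and FTL, against 1.84% of all tested genes. With limma on log2(TPM + 1) 3 are called higher, which are BLVRB, GCLC and SRXN1, against 1.14% of all tested genes. By both, 0 members are called lower, against 1.44% (effective lengths) and 0.732% (limma) of all tested genes, and edgeR with TMM and DESeq2 each call 3. At an unadjusted p under 0.05, edgeR with effective lengths has 4 of 35 members lower, beside 1491 of all 15566 tested genes. By limma 3 of 35 are lower at that unadjusted threshold, beside 1453 of 15566. None of the 17 called members changes direction under any of the 20 alternatives.

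**Figure D3:**
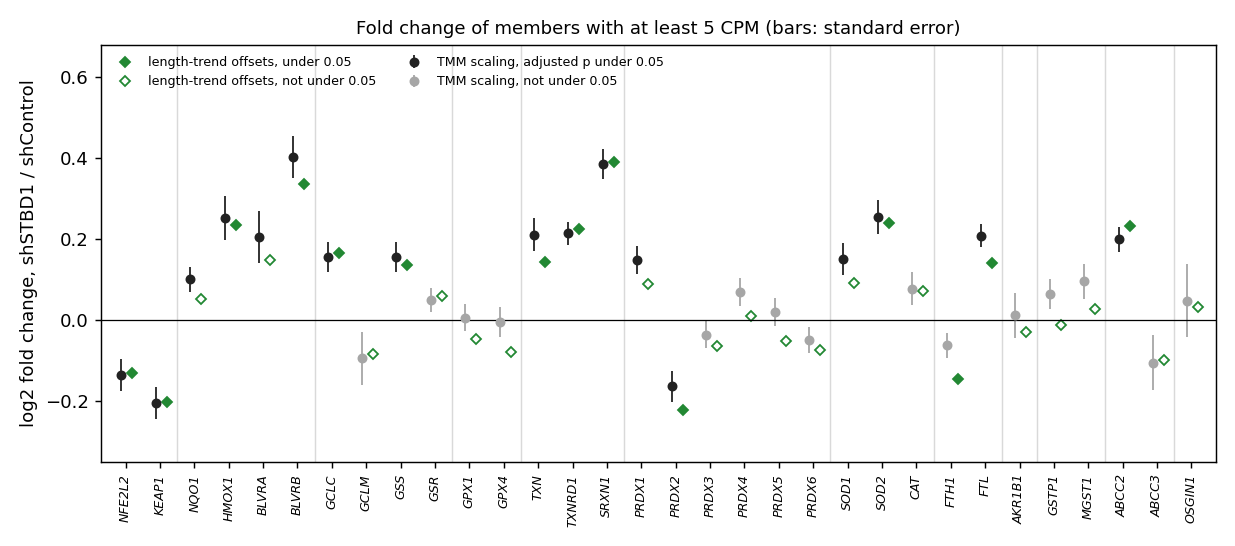
Log2 fold change (shSTBD1 over shControl) of the 32 members with at least 5 CPM, by role. Circles with bars give the value with TMM scaling and its standard error (black where the adjusted p is under 0.05, grey where it is not), and green diamonds the value with length-trend offsets (filled where under 0.05). The diamonds of short transcripts such as FTL, TXN and FTH1 lie lower than their circles, and those of SRXN1, TXNRD1 and ABCC2 do not.

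Beside the members, 91 other genes of the same pathways were followed. Of the 83 that are tested, 12 (14.5%) are called higher, against 8.22% of all tested genes, and 12 (14.5%) lower, against 7.54%, with a median log2 fold change of 0.013. In cystine uptake and NADPH supply 4 of 9 genes fall, whereas in other conjugation and reduction enzymes 5 of 19 rise.

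SLC7A11, which brings in the cystine from which glutathione is made, is at 72.4, 75.1 and 77.7 CPM in shControl and at 48.4, 43.8 and 47.2 CPM in shSTBD1. Its log2 fold change of -0.69 (standard error 0.047, edgeR adjusted p = 6.7e-08) is larger in size than that of any called member, and it is called in all 20 alternatives. Its partner chain SLC3A2, and PGD, which makes NADPH in the pentose phosphate pathway, fall too, with log2 fold changes of -0.14 and -0.18 (edgeR adjusted p = 0.0079 and 0.0016). The adjusted p of SLC3A2 is 0.055 without shSTBD1 1, whereas PGD is called with any 1 library left out. CHAC1, an enzyme that degrades glutathione in the cytosol, is at 11.5, 12.1 and 12.9 CPM in shControl and at 7.33, 8.14 and 7.87 CPM in shSTBD1, a log2 fold change of -0.64 (standard error 0.093, edgeR adjusted p = 0.00017). GLO1, which with glutathione clears methylglyoxal, rises by 0.24 on the log2 scale (edgeR adjusted p = 6.3e-05).

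Among 14 partners and controllers of NRF2, 2 (14.3%) rise and 6 (42.9%) fall, against 8.22% and 7.54% of all tested genes. MAFF, a small MAF protein, has a log2 fold change of 0.29 (edgeR adjusted p = 0.015), which without shControl 2, shSTBD1 2 or shSTBD1 3 has an adjusted p of 0.063 to 0.068. RBX1, the RING subunit of the CUL3 ligase, rises by 0.26 (edgeR adjusted p = 0.0081) on the log2 scale. CUL3 itself falls, with a log2 fold change of -0.17 (edgeR adjusted p = 0.012), which has an adjusted p of 0.083 without shSTBD1 3. The relatives of NRF2 fall as NFE2L2 does, NFE2L1 by 0.22 and NFE2L3 by 0.23 on the log2 scale (edgeR adjusted p = 0.0012 and 0.0033). BACH1, a repressor at NRF2 sites, and SQSTM1, which binds KEAP1, are not called, with log2 fold changes of 0.019 and 0.030 that turn negative with offsets for effective length.

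Of 13 genes for iron and heme handling, 2 (15.4%) are called, both higher, against 8.22% of all tested genes called higher. TFRC, the transferrin receptor that brings iron in, is at 305, 312 and 320 CPM in shControl and at 424, 405 and 405 CPM in shSTBD1, a log2 fold change of 0.40 (standard error 0.032, edgeR adjusted p = 5.0e-07). NCOA4, which carries ferritin to autophagy, rises by 0.16 on the log2 scale (edgeR adjusted p = 0.0086), with an adjusted p of 0.056 without shSTBD1 1. MGST3, a microsomal transferase, rises by 0.25 (edgeR adjusted p = 0.012), with an adjusted p of 0.066 without shSTBD1 2, and GPX8 of the endoplasmic reticulum falls by 0.20 (edgeR adjusted p = 0.017), with 0.059 to 0.073 without shControl 3, shSTBD1 2 or shSTBD1 3. With effective lengths as offsets or limma on TPM, 2 of the 83 genes are called higher, GLO1 and TFRC, and 3 lower, SLC7A11, PGD and CHAC1. TXNIP, CBR1, SOD3 and UGT1A6 are listed at 0 in all 6 libraries. Many kinds of cell express TXNIP and CBR1, so these zeros may come from the gene models or the quantification and are not read as absence.

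**Figure D4:**
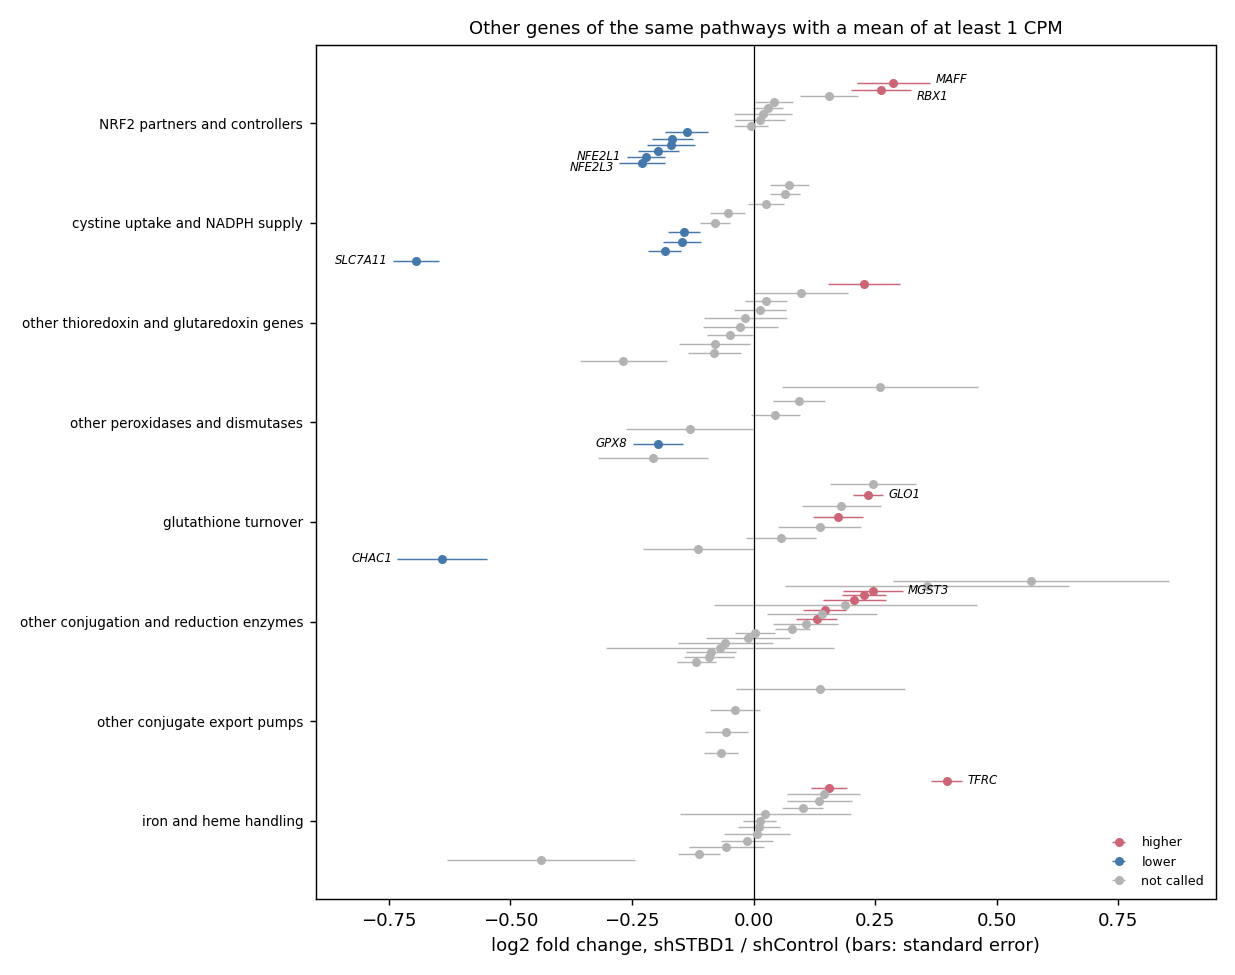
Log2 fold change with its standard error for the 82 tested genes of the same pathways that are not members and have a mean of at least 1 CPM, by function (red called higher, blue called lower, grey not called). Of the called genes, SLC7A11 and CHAC1 lie lowest at -0.69 and -0.64, and TFRC highest at 0.40.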

How the data were processed

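RNA from 3 shControl and 3 shSTBD1 samples of HCT116 cells is compared, grouped by their labels. The authors remove adapter, poly-N and low-quality reads, align those left with STAR 2.7.1a on Hg38 with Ensembl gene models, and quantify genes with RSEM 1.3.1. The deposited expected counts are not normalized, and the TPM values are scaled by the authors to the same total in each library, per length. Expected counts are rounded to whole numbers, filtered by filterByExpr (15566 of 58395 genes), scaled by TMM and compared by edgeR's quasi-likelihood test (edgeR 4.0.16, R 4.3.3) with no replicate term, and p-values are adjusted by Benjamini-Hochberg over all tested genes. A standard error is the absolute log2 fold change divided by the root of F. SOD2 is matched through its GENCODE 44 transcripts, all other members by symbol. Coordinates are those of GENCODE 44 on GRCh38, the build named Hg38.

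The members and lists were chosen with earlier results of these data known. Named in full are NFE2L2, KEAP1, NQO1, HMOX1, GCLC, GCLM, TXNRD1, SRXN1 and every other called member, and, of the other pathway genes, the 5 higher and 5 lower with the largest called change and a mean of at least 1 CPM. FTH1 is also given by library, and SLC3A2, PGD, CUL3, BACH1, SQSTM1, NCOA4 and CD68 are also named, chosen after their values were seen. Alternatives are DESeq2 1.42.0, other scalings and filters, length and GC offsets, the replicate block, limma 3.58.1 on log2 TPM with 1 or 0.1 added, and each library left out. The common biological coefficient of variation is 3.37%.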

Additional observations from a re-analysis of the deposited data

How the results depend on the processing

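Of 20 alternatives, 14 change a processing step and 6 leave out a library. Library size alone, upper-quartile factors, both filters on low counts, unrounded counts and GC offsets keep the counts of called members within 1.5 times. The number of members called higher falls from 14 to 5 under effective-length offsets and to 3 by limma on TPM with 1 or 0.1 added, and the number called lower falls from 3 to 0 in the same 3 fits. For the other pathway genes the numbers of 12 higher and 12 lower become 2 and 3 in these 3 fits, and DESeq2 calls 7 higher. Over all genes, 1280 higher and 1173 lower become 287 and 224 under effective-length offsets, 178 and 114 by limma on log2(TPM + 1), and 176 and 114 with 0.1 added. STBD1 has a log2 fold change of -0.54 with limma on log2(TPM + 1) (adjusted p = 0.065) and of -0.65 with 0.1 added (adjusted p = 0.067). The sizes move less than the counts, since under effective-length offsets TXN has a log2 fold change of 0.21, KEAP1 of -0.21 and HMOX1 of 0.26, and the median over the tested members runs from 0.052 to 0.099 across the 20 alternatives. The cause of these changes was not tested.

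With each library left out in turn, members called higher run from 9 (without shSTBD1 1) to 14 and members called lower from 2 to 3, other pathway genes from 5 (without shSTBD1 2) to 10 higher and from 7 (without shSTBD1 3) to 12 lower, and all genes from 785 to 1333 higher and from 624 (without shSTBD1 2) to 1244 lower. STBD1 runs from -0.76 to -0.57. Of the 17 called members 10 are called in all 6 of these fits.

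Members that are not called change sign in some fits. With length-trend offsets, without and with the replicate block, GPX1 is at -0.046 and -0.046, PRDX5 at -0.052 and -0.051, AKR1B1 at -0.029 and -0.028, and GSTP1 at -0.014 and -0.014. With GC offsets GPX1 is at -0.013 without and with the block. Under effective-length offsets GSR is at -0.0083 and AKR1B1 at -0.033, and in limma on TPM (1 and 0.1 added) GSR is at -0.017 and -0.017 and AKR1B1 at -0.045 and -0.046. Of the other genes named, BACH1 is at -0.27 and SQSTM1 at -0.041 under effective-length offsets, and in limma on TPM (1 and 0.1 added) BACH1 is at -0.23 and -0.26 and SQSTM1 at -0.047 and -0.047. With library size alone GPX4 is at 0.0036. With a library left out, GPX1 runs from -0.017 to 0.029, GPX4 from -0.037 to 0.034, PRDX5 from -0.0093 to 0.035, AKR1B1 from -0.041 to 0.051, AKR1C1 from -0.049 to 0.45, OSGIN1 from -0.034 to 0.099 and BACH1 from -0.027 to 0.071.

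With the replicate number as a block, 14 members are called higher and 3 lower, and 1361 and 1218 genes in all. Deviations of same-numbered libraries correlate at -0.0084 to 0.071, so the numbers were not taken to pair the samples, and the block changes no call of a member. The depth limits genes near or under 1 CPM, as AKR1B10, AKR1C1 and AKR1C3.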
